A study of Mus musculus with 4 samples.

Results

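The retinoblastoma and E2F families were followed in mouse embryonic fibroblasts (MEFs) through 10 genes, Rb1, Rbl1, Rbl2 and E2f1 to E2f7. They were taken as all non-control probes on the arrays that carry 1 of these 10 symbols, which gave 20 probes of 41174 and 10 genes of 27745 named on the arrays. MEFs are primary cells grown from embryos. Those labelled WT were Lats2+/+ and those labelled KO were Lats2-/-, all of the strain C57BL/6J, and the age of the embryos was not given in the sources used here. The kinase LATS2 belongs to the Hippo pathway and inhibits the coactivators YAP and TAZ when cells are crowded. All cultures were kept in the same serum-containing medium. Low density cultures were sampled subconfluent after 48 hours and high density cultures after 3 to 5 days, so density and time in culture cannot be told apart. RNA from both densities of 1 genotype was hybridised together on 2-colour arrays, 2 arrays per genotype with the Cy3 and Cy5 dyes exchanged.

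The pocket proteins pRB (Rb1), p107 (Rbl1) and p130 (Rbl2) bind E2F transcription factors and hold back genes needed for DNA replication, and cyclin-dependent kinases release this hold when cells enter the cycle. E2F1, E2F2 and E2F3 are usually described as activators, E2F4 and E2F5 as factors that work with p107 and p130 in resting cells, and E2F6 and E2F7 as repressors that act without pocket proteins. In the DREAM complex, p107 or p130 joins E2F4 and the MuvB core on cell cycle promoters. Several E2f genes and Rbl1 are themselves known E2F targets.

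Because Rbl1 and several E2f genes are regulated through E2F sites, their promoter windows are shown first. The windows come from RefSeq (build GRCm38.p6), run from 250 bases before to 50 bases after a start site, and were available for 7 of the 10 genes. Rb1, E2f4 and E2f5 had no entry. The letters TTTCCCGC, TTTCGCGC, TTTGCCGC and TTTGGCGC, which are forms of the E2F binding motif, were searched on both strands. They occurred in 744 of all 32851 windows of the same length (2.26%), and in a window of 4 members, Rbl1, E2f7, E2f2 and E2f3. No such letters stood in the windows of E2f1, E2f6 and Rbl2, or in the second windows of E2f2 and E2f3, which says nothing of the factors, of other start sites or of sequence outside these windows. The E2f1 window may lie inside the gene rather than before it, and nothing is read from it. The whole windows are given for Rbl1 and E2f7, which had the largest density effects in WT cells, and 30 bases or fewer around the match for E2f2 and E2f3, whose density effects were smaller. Capitals mark the match, and each line reads 5′ to 3′ on the strand of the gene.
Rbl1 (chr2:157204485-157204784, minus strand): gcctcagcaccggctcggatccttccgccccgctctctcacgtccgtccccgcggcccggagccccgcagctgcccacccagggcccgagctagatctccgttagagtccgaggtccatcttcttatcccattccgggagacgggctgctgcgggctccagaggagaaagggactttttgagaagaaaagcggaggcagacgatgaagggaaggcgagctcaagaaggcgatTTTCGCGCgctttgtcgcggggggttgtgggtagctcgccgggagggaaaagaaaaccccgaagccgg
E2f7 (chr10:110745189-110745488, plus strand): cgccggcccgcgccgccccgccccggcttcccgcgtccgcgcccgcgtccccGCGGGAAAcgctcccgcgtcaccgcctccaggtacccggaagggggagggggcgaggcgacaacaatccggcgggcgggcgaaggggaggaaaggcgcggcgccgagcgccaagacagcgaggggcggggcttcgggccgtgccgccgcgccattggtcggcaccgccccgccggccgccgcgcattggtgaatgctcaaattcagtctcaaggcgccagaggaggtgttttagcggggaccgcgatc
E2f2 (from chr4:136172024-136172323, plus strand): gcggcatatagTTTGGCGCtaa
E2f3 (from chr13:29986014-29986313, minus strand): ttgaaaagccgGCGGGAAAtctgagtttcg
The match began at base 233 of the 300 in Rbl1, base 53 in E2f7, base 290 in E2f2 and base 240 in E2f3. Among 24 E2F target genes, listed from general knowledge but with earlier results of these data known, 20 had a window and 12 of these held a match.

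The dye-swapped arrays were counted as technical repeats, which leaves 1 biological sample for each genotype and density. Neither the density effect of 1 genotype nor a genotype difference could be tested. The values on both arrays are therefore given, and a gene was counted as changed where its mean log2 ratio reached 1 in size (2-fold) and both arrays gave the same sign. This rule is a size limit and carries no p-value. Per channel, 52.8% to 67.66% of the features exceeded background well, and no feature was saturated. All 7 fibroblast markers exceeded background well in each of the 8 channels. The leukocyte and macrophage genes Ptprc and Adgre1, the endothelial genes Pecam1 and Cdh5, and the epithelial genes Epcam, Cdh1 and Krt8 were not well above background in any channel. Cd14 and Cd68 were in all 8 channels, and Csf1r in 6. The endothelial gene Kdr and the epithelial gene Krt18 were in 2 channels each, those of WT low density, and the endothelial gene Tek was in 1. Both WT arrays were on 1 slide, while each KO array had its own slide, with about 7 months between their scans, so slide and genotype cannot be told apart. For Lats2 itself, 3 of 4 probes read higher on the arrays labelled KO than on those labelled WT at both densities (means of 0.91 to 1.49 on the log2 scale), and the remaining probe read lower (-0.63 at low and -1.26 at high density). Which part of the gene was deleted was not given in the sources used here, so KO and WT are used as names of labels. The study's own check of the knockout in Lats2 KO MEFs was a western blot of the protein, which the arrays do not measure.

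In all 8 channels, 17 of the 20 probes were well above background. These 17 covered all 10 genes, and each was tested in every comparison. One further probe each for E2f5 and Rb1 was well above background in 2 channels, and one for E2f3 in none. A gene with several probes was represented by its brightest one, and for the members the others are given where they differed. Signals are compared within a probe only. The arrays were annotated on build mm8, and probes were not assigned to exons here.

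**Figure D1:**
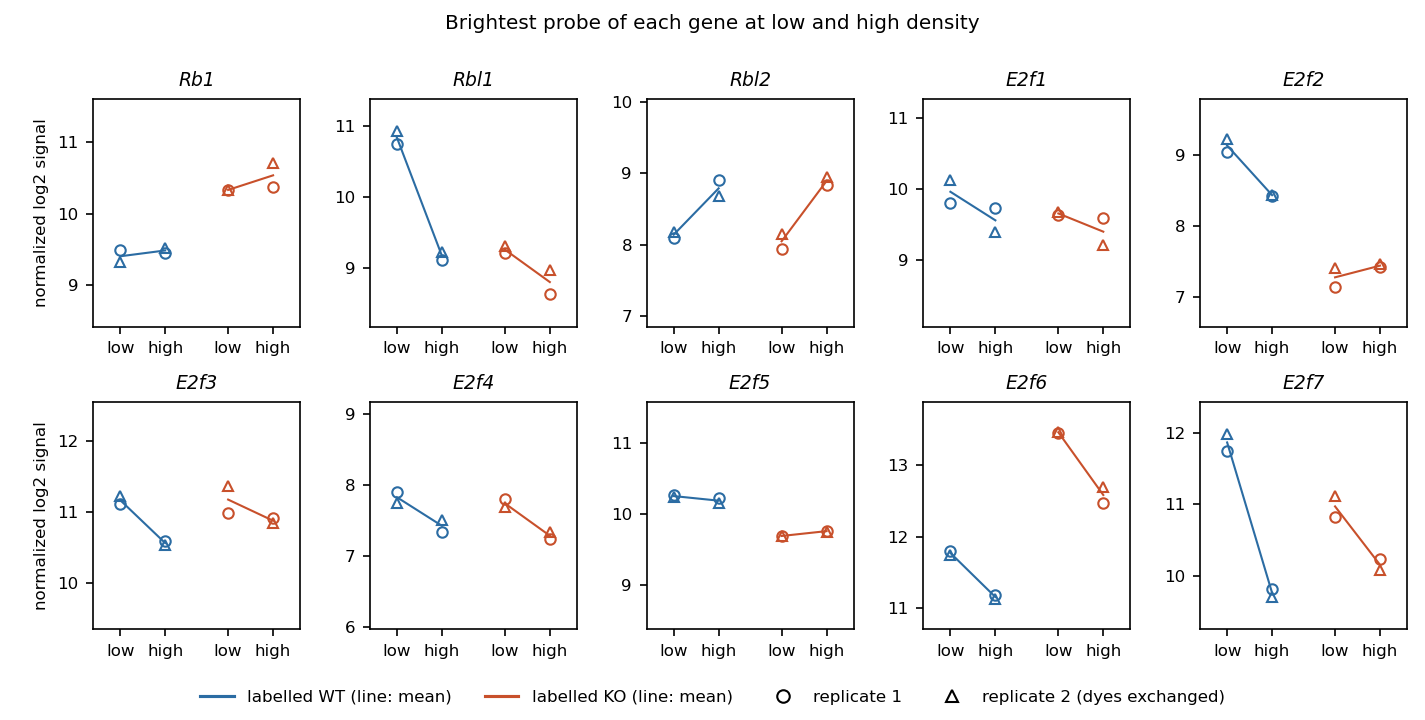
Normalized log2 signal (vertical axes, each spanning the same range) of the brightest probe of the 10 genes at low and high density, in MEFs labelled WT (blue) and KO (orange). Circles are replicate 1, triangles replicate 2 with the dyes exchanged, and lines join the means; Rbl1 and E2f7 drop most steeply in WT, and E2f2, E2f6 and Rb1 separate by genotype.

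At high density the signals of 2 members, E2f7 and Rbl1, were more than 2-fold lower in MEFs labelled WT, and no member passed this limit in MEFs labelled KO. Among all genes tested the same rule called 15.5% in WT and 11% in KO in either direction, and 6.08% and 3.87% as lower. With 10 genes, no excess over these shares is read from 2 calls in WT and 0 in KO. The signals of 8 of the 10 genes were lower at high density in WT and of 6 in KO (9 and 8 with median centring, which turned the near-zero values of Rb1 and E2f5). The median over the 10 was -0.50 in WT and -0.28 in KO on the log2 scale, against 0.06 over all genes in both.

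Rbl1 encodes p107, the pocket protein that accumulates in cycling cells. Its probe (chr2:156837848-156837907, mm8) gave normalized log2 signals of 10.75 and 10.93 at low density and 9.12 and 9.23 at high density in WT. In KO the signals were 9.21 and 9.32 at low and 8.64 and 8.98 at high density. The WT low density culture stood above the other cultures in both dyes, and the ranges of the densities did not overlap in either genotype. The log2 ratio of high to low density was -1.66 in WT (-1.63 and -1.69 on the 2 arrays), a 3.16-fold lower signal. In KO it was -0.46 (-0.57 and -0.34).

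Rbl2 encodes p130, the pocket protein that prevails in resting cells, and its signal lay on the other side. At the brighter probe (chr8:94013326-94013385, mm8) the log2 signals were 8.10 and 8.18 at low and 8.90 and 8.68 at high density in WT, and 7.94 and 8.15 at low and 8.84 and 8.95 at high density in KO. Both high density cultures were above both low density cultures, and within a density the genotypes overlapped. The ratios of 0.65 in WT (0.80 and 0.50) and 0.85 in KO (0.89 and 0.80) stayed under the 2-fold limit, and the KO ratio passed it with Agilent's processed signals (1.09). The other probe gave 0.16 and 0.26.

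Rb1 encodes pRB, the founding pocket protein, and its level hardly moved with density. Up to 10 features of its bright probe (chr14:71929755-71929814, mm8) gave mean log2 signals of 9.48 and 9.32 at low and 9.45 and 9.51 at high density in WT, and 10.33 and 10.34 at low and 10.37 and 10.71 at high density in KO. The density ratio was 0.08 in WT (-0.03 and 0.19) and 0.21 in KO (0.04 and 0.37). On 1 array the features of this probe differed by an SD of 0.02 to 0.07, so the gap between the dye orientations was larger than the spread between features.

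Of the activators, E2f1 and E2f2 were both lower at high density in WT without passing the limit. E2f1 had a second probe spotted 10 times (chr2:154251447-154251506, mm8), with log2 ratios of -0.56 in WT (-0.67 and -0.44) and -0.30 in KO (-0.51 and -0.09). The brighter single feature gave -0.40 (-0.08 and -0.73) and -0.26 (-0.05 and -0.47). At that feature the KO low, WT high and KO high density signals overlapped in part, so the order of these neighbours is not settled. Both probes gave the same sign in both genotypes, but at the brighter feature the gap between the 2 arrays was larger than the mean ratio.

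E2f2 showed a ratio of opposite sign in the 2 genotypes. Its probe (chr4:135466723-135466782, mm8) read 9.04 and 9.23 at low and 8.43 and 8.44 at high density in WT, and 7.15 and 7.41 at low and 7.42 and 7.47 at high density in KO. The ratio was -0.70 in WT (-0.61 and -0.78) and 0.16 in KO (0.27 and 0.06). The 4 cultures did not overlap, in the order WT low, WT high, KO high and KO low, but the 2 KO cultures nearly met (7.42 and 7.41). The mean KO ratio was smaller than the dye-swap SD over all probes in KO (0.21), so the order of the KO cultures is not settled.

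E2f3 was lower at high density at 3 probes in both genotypes, with WT ratios of -0.60 to -0.65 and KO ratios of -0.30 to -0.81. The brightest probe gave the smallest KO ratio, -0.30 (-0.07 and -0.53). With Agilent's processed signals the other 2 probes passed the limit in both genotypes, at -1.01 and -1.23 in WT and -1.23 and -1.10 in KO.

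E2f4, a partner of p107 and p130, was lower at high density on all 4 arrays without passing the limit. It read -0.40 in WT (-0.56 and -0.24) and -0.45 in KO (-0.56 and -0.35). E2f5, another such partner, read -0.06 in WT (-0.05 and -0.08) and 0.07 in KO (0.07 and 0.06), so its brighter probe was nearly level across densities. The second E2f5 probe gave -0.22 and 0.01.

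E2f7 encodes an atypical E2F that represses E2F targets late in S phase, and had the largest density ratio of the 10 genes. At its brighter probe (chr10:110191207-110191266, mm8) the log2 signals were 11.76 and 11.99 at low and 9.81 and 9.70 at high density in WT, and 10.82 and 11.12 at low and 10.23 and 10.07 at high density in KO. The order was WT low, KO low, KO high and WT high, with no overlap between neighbours. The ratio was -2.12 in WT (-1.95 and -2.28), a 4.33-fold lower signal, and -0.82 in KO (-0.59 and -1.05). The dimmer probe (chr10:110171819-110171878, mm8) gave -0.84 in WT and -0.72 in KO and did not pass the limit in either. With Agilent's processed signals, to which no offset was added, it gave -2.05 in WT and -1.27 in KO and passed in both.

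E2f6, a repressor found in Polycomb-type complexes, was lower at high density in both genotypes at both probes. The brighter probe gave -0.62 in WT (-0.62 and -0.61) and -0.88 in KO (-0.996 and -0.77), and the dimmer one -0.35 and -0.51. With Agilent's processed signals the dimmer probe gave -0.76 in WT and passed in KO, at -1.61.

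**Figure D2:**
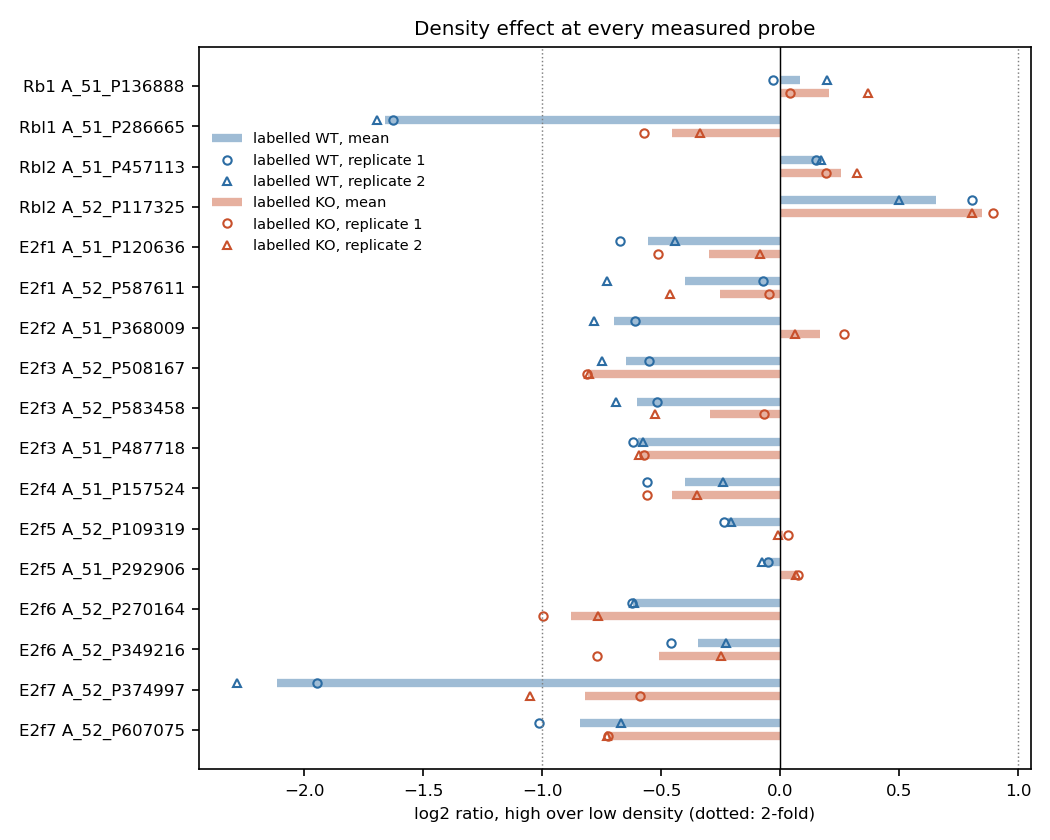
Log2 ratio of high to low density (horizontal axis) at the 17 measured probes, with bars for the mean of each genotype and symbols for the 2 arrays. The bars of Rbl1 and of 1 E2f7 probe pass the dotted 2-fold line in WT, and no bar passes it in KO.

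The density effects of the 2 genotypes were set against each other as KO minus WT. By the 2-fold rule this difference was called for 2 members, E2f7 (1.29, with 1.36 and 1.23) and Rbl1 (1.20, with 1.05 and 1.36), against 9.53% of all genes. E2f2 followed with 0.86 (0.88 and 0.84). The other 7 genes lay between -0.26 (E2f6) and 0.31 (E2f3). At the second E2f7 probe the difference was 0.12 (0.29 and -0.06), and 0.77 with Agilent's processed signals, so its size at this dim probe depends on the signal used. With processed signals E2f2 passed as well, at 1.20. The median over the 10 genes was 0.17, against 0.02 over all genes.

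Tested as an effect common to both genotypes, with limma on the 2 dye-swap means, no probe of 21545 passed an adjusted p of 0.05 (0%). There were 6391 probes with an unadjusted p under 0.05. An ordinary t-test on the same 2 means, with the limits of the study's methods, gave 436 probes with an unadjusted p under 0.05 and 2-fold. After Benjamini-Hochberg adjustment it gave 0. This comparison over both genotypes is not one that the study made. The limma count was 365 with Agilent's processed signals, 195 with probes well above background in every channel and 150 without KO replicate 1, and no member was called under any of these. Among the brightest member probes, 4 of 10 had an unadjusted p under 0.05. Their log2 means and limma adjusted p were 0.75 and 0.0948 for Rbl2, -0.75 and 0.0979 for E2f6, -1.47 and 0.105 for E2f7, and -1.06 and 0.145 for Rbl1.

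Between the genotypes at low density, 3 members differed by the 2-fold rule: E2f2 and Rbl1 were lower and E2f6 was higher in MEFs labelled KO. The share of all genes past the rule was 15.7%. E2f2 had a difference of -1.85 (-1.89 and -1.82 in the 2 dyes), a 3.61-fold lower signal, and Rbl1 one of -1.57 (-1.53 and -1.61), 2.98-fold lower. E2f6 was 3.24-fold higher at its brighter probe, 1.70 (1.66 and 1.73), with log2 signals of 11.80 and 11.74 in WT and 13.46 and 13.47 in KO. The dimmer E2f6 probe (chr12:16847160-16847219, mm8) went the other way, at -0.62 (-0.64 and -0.60), so E2f6 has no single direction between the genotypes. These values share their samples with the density effects and are not a separate line of evidence.

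At high density 2 members passed, E2f6 at 1.43 (1.29 and 1.58) and Rb1 at 1.06 (0.92 and 1.20), both higher in KO, against 14.5% of all genes. Rb1 stood just under the limit at low density, at 0.93 (0.84 and 1.02), and its KO signals were above its WT signals in all 4 pairings of dye and density. E2f2 stood just outside the limit at -0.99 (-1.01 and -0.97). Rbl1 differed by -0.37 (-0.48 and -0.26). The brighter E2f7 probe was lower in KO at low density, -0.90 (-0.94 and -0.86), and higher at high density, 0.39 (0.42 and 0.37). The dimmer E2f7 probe did not share this change of sign. It gave 0.09 (0.05 and 0.14) at low and 0.21 (0.34 and 0.08) at high density. The dimmer E2f6 probe gave -0.78 (-0.95 and -0.62). With Agilent's processed signals it passed the rule in the direction opposite to the brighter probe, at -1.38 at low and -2.23 at high density, and E2f2 passed at high density (-1.26).

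The remaining genes differed less between genotypes. The brighter E2f5 probe was lower in KO at both densities (-0.56 and -0.43) and its second probe too (-0.37 and -0.14). The 2 E2f1 probes read -0.47 and -0.30 at low and -0.21 and -0.16 at high density. The tested probes of Rbl2, E2f3 and E2f4 lay between -0.42 and 0.31. Without scaling between arrays, which moved the median over all probes to 0.27, the sign turned for Rbl2 and E2f4 at low density and for E2f1 and E2f4 at high density. Markers of cell types also differed between the genotypes. Of 3 measured macrophage markers, Cd14 was lower in KO at both densities (-1.80 and -1.59), and Cd68 gave -0.10 and -0.38. Csf1r had opposite signs in the 2 dyes, with means of 0.43 at low (-0.10 and 0.96) and 0.57 at high density (-0.07 and 1.21). It was not well above background in WT at high density. Of 7 fibroblast markers, 4 were above 0 and 3 below at low density, with Pdgfra higher (4.46) and Col1a2 lower (-1.001, and 0.78 at its second probe) by the rule. At high density 6 were above 0 and 1 below, with Pdgfra (3.10) and Thy1 (1.39) higher and S100a4 lower (-1.36) by the rule. Summed over the 5 macrophage markers, the signal was 893 to 917 at low and 713 to 764 at high density in WT, and 498 to 600 and 435 to 556 in KO. Cd14 was the brightest of the 5 in WT, with a mean log2 signal of 9.14 in WT and 7.34 in KO at low density. Ptprc and Adgre1, which were not well above background in any channel, also enter the sum, so it mostly follows Cd14. The part of the cell type markers in the genotype differences was not tested. In such bulk RNA, fewer cells of a type and less RNA per cell cannot be told apart.

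**Figure D3:**
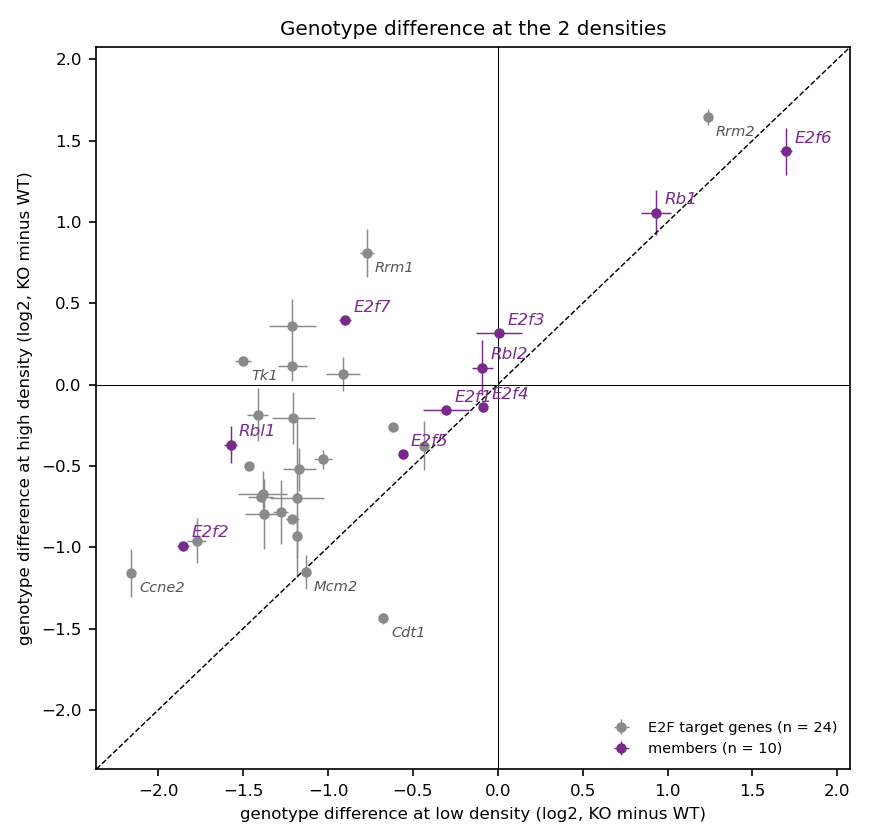
Genotype difference, KO minus WT in log2, at low (horizontal) and high density (vertical) for the 10 members and 24 E2F target genes, with bars reaching the values of the 2 dyes and a dashed line of equality. E2f2, Rbl1 and most targets lie left of zero, while E2f6, Rb1 and the target Rrm2 lie in the upper right.

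The genes these families act on were read from the list of 24 E2F targets, most of which act in DNA replication, nucleotide synthesis or the cell cycle. The list was chosen with earlier results of these data known. The shares over all genes are therefore given for scale only, and an enrichment was not tested. In WT, 23 of the 24 were lower at high density by the 2-fold rule and none higher, where 6.08% of all genes were lower, and the list median was -1.47. In KO, 8 of 24 were lower and none higher, where 3.87% of all genes were lower, and the median was -0.84. Cdc25a, a phosphatase that activates cyclin-dependent kinases, was the 1 gene that missed the limit in WT.

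The largest WT ratios belonged to Tk1, thymidine kinase (-1.96, with -2.01 and -1.91), Ccne2, cyclin E2 (-1.93), and Rrm2, a subunit of ribonucleotide reductase (-1.89). In KO the largest were those of Cdt1, which licenses replication origins (-1.86), Rrm2 (-1.48) and Mcm2, part of the replicative helicase (-1.40). The difference KO minus WT was at least 2-fold and positive for 7 of the 24 and in no case negative, against 4.56% of all genes higher. It was largest for Tk1 (1.65), Rrm1 (1.58) and Ccna2, cyclin A2 (1.57). Cdt1 and Mcm2 did not share this and gave -0.76 and -0.02.

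**Figure D4:**
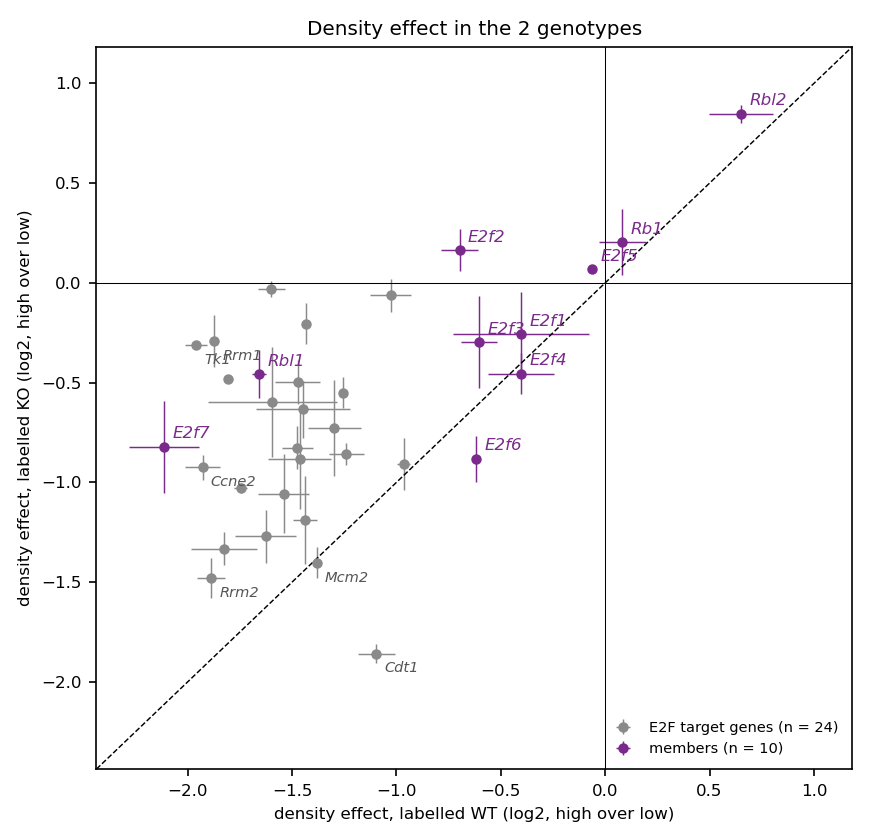
Log2 ratio of high to low density in MEFs labelled WT (horizontal) and KO (vertical) for the 10 members and the 24 E2F target genes, with bars reaching the values of the 2 arrays and a dashed line of equality. All 24 targets lie left of zero, 22 of them above the line, together with Rbl1 and E2f7; Rbl2 lies at the upper right.

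At low density 18 of the 24 targets were lower in KO by the rule (8.36% of all genes), with a median of -1.21. Ccne2 (-2.16), Mcm4 (-1.77) and Tk1 (-1.50) differed most. Rrm2 was the 1 target that was higher, at 1.24 (1.25 and 1.22). At high density 3 were lower, Cdt1 (-1.44), Ccne2 (-1.16) and Mcm2 (-1.15), against 7.79% of all genes, and Rrm2 was again higher (1.64). The median at high density was -0.51. Without scaling between arrays 10 targets in place of 19 passed in either direction at low density, and without replicate 2 the count at high density was 8 in place of 4.

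E2f8, the second atypical E2F, was not among the members chosen. Its brighter probe read -0.85 in WT and -0.53 in KO across density and -1.02 between genotypes at low density, the only one of its 5 values past the limit.

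The partners of E2F and the MuvB core, 7 genes in all, had median density ratios of -0.27 in WT and -0.39 in KO, against 0.06 in both over all genes. In WT 2 of the 7 were lower by the rule at high density, Lin9 (-1.65) and Lin54 (-1.37), both MuvB subunits, and none in KO, beside the 6.08% and 3.87% of all genes that were lower. Lin9 also passed for the difference (1.001, with 1.05 and 0.95), as did 9.53% of all genes. Rbbp4, a histone-binding MuvB subunit, was the 1 gene of the 7 that differed between genotypes by the rule, lower in KO at both densities (-1.40 and -1.04), where 8.36% and 7.79% of all genes were lower. Its other 2 probes gave -1.60 and -0.55 at low and -1.29 and -0.29 at high density. Tfdp1, the main dimer partner of E2F, read -0.77 in WT and -0.94 in KO. Tfdp2, the other partner, read 0.52 in WT and -0.39 in KO (-0.01 and -0.76 on the 2 arrays). Its dimmer probes gave -0.09 and 0.19 in WT and -0.56 and -0.34 in KO, so the probes did not share a direction in WT. The other 2 Lin9 probes were dim, and at high density they were not well above background in both dyes of either genotype. They entered the density comparisons through low density, with ratios of -0.19 and -0.21 in WT and -0.16 and -0.15 in KO. The large Lin9 ratio in WT thus rests on the brightest probe.

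Of the 6 genes for kinases and cyclins that phosphorylate pocket proteins, none passed the rule at its brightest probe in any of the 5 comparisons, in which 9.53% to 15.7% of all genes passed. The D-type cyclins gave density ratios of -0.32 (Ccnd1), 0.31 (Ccnd2) and 0.21 (Ccnd3) in WT and -0.23, 0.63 and 0.46 in KO. Cdk4 gave -0.14 and -0.10, Cdk2 -0.57 and -0.37, and Cdk6 -0.26 and 0.56 at its brightest probe. The 3 Cdk6 probes disagreed. Another probe seen in all 8 channels gave -0.66 and -0.48, and one read higher in KO than in WT at both densities, but it was well above background in 1 of the 4 WT channels, so no size is given for it.

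Of 10 chromatin partners of the pocket proteins, Smarca2, an ATPase of the BAF chromatin remodelling complex, was the 1 gene whose brightest probe changed with density, beside 15.5% of all genes in WT and 11% in KO. It was higher at high density in WT (1.91, with 2.15 and 1.66) and in KO (2.13, with 2.47 and 1.80). It was also higher in KO at low (1.22) and high density (1.44). A second Smarca2 probe gave 2.08 across density in KO and 2.41 between genotypes at high density. Across density in WT this second probe gave 0.41, which did not pass the limit, and its difference KO minus WT was 1.67. It was not well above background in WT at low density, so the size of both values is uncertain. At high density Arid4a, an RB-binding protein, was higher in KO (1.26) and Rbbp8, which acts in DNA end resection, was lower (-1.02), so that with Smarca2 3 of the 10 passed there, beside 14.5% of all genes. The other probes of Arid4a (0.74 and 0.34) and Rbbp8 (-0.13) did not pass there. The histone deacetylase Hdac1 had a density ratio of 0.21 in both genotypes, and its genotype difference of -0.94 at both densities did not pass the limit.

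The genes whose normalized log2 signals over the 8 channels were most like the brightest E2f1 probe were sought over 19500 probes measured in every channel. They were Mobk1b (Pearson r of 0.964), Cct2 (0.943) and Ccdc117 (0.935). For Rb1 they were Pdgfc (0.995), Cuedc1 (0.995) and Spnb2 (0.993). The 8 channels hold 2 genotypes at 2 densities on 4 arrays, so these are descriptions of a shared pattern and carry no test.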

How the data were processed

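MEFs labelled Lats2 KO or WT were profiled on 4 Agilent 2-colour arrays, and genotype, density and dye were taken from the labels. Per the file headers, the authors extracted the deposited raw spot intensity and the processed signal with Agilent Feature Extraction 10.5.1.1, and the deposited quality flags are a score of 0 or 1 from the same software. The deposited value table holds the log10 ratio of the same files, turned to high over low density.

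Raw intensity was corrected with normexp (offset 50) and loess in limma 3.58.1 (R 4.3.3). With this offset, dim probes give smaller ratios. Control spots were left out, as were outlier-flagged features on the array concerned. Features of a probe were averaged, and single channels were scaled between arrays by Aquantile for the genotype differences. For density, a probe had to exceed background well on the 2 arrays of the genotype at one or both densities, and for genotype, in the 2 dyes of one or both genotypes. The effect common to both genotypes was tested with limma on 2 dye-swap means, with Benjamini-Hochberg adjustment. The labels do not say whether a dye swap used the same extracts, and precision is limited by how few arrays there are. The size rule and the limma fit were also run on simulated data with planted changes well past the 2-fold limit. That run checks the code and does not give error rates for these data.

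The members and gene lists were chosen with earlier results of these data known. Named were all members with every probe, E2f8, Lats2, up to 3 genes per list and direction in each comparison, and the 3 genes most like E2f1 and Rb1. Genes named at values short of the limit were chosen after their values were seen. All 79 genes of the lists were found on the arrays, some under older symbols. Python 3.11.15 with numpy and pandas was used. Alternatives were other signals, normalizations, filters, fold limits and probe rules, and leaving out each dye orientation. The slide was not fitted as a block, because each slide holds 1 genotype.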

Additional observations from a re-analysis of the deposited data

Results flagged for a closer look

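The density ratio of E2f2 had opposite signs in the genotypes on all 4 arrays (-0.61 and -0.78 in WT, 0.27 and 0.06 in KO, a difference of 0.86), and this difference was not tested. The brighter E2f5 probe had opposite signs too (-0.05 and -0.08 in WT, 0.07 and 0.06 in KO, a difference of 0.13), also not tested. The brighter E2f7 probe read lower in KO at low density in both dyes (-0.94 and -0.86) and higher at high density (0.42 and 0.37), a difference of 1.29 that was not tested and equals its difference of density effects. The dimmer E2f7 probe gave 0.09 at low and 0.21 at high density and did not change its sign.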

How the results depend on the processing

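No paired analysis was possible because the labels give no replicate numbers and each genotype has 1 dye-swap pair, beyond the pairing of the 2 densities on each array that every density ratio already holds. No member or target that passed the 2-fold rule changed its sign under any alternative. Members changed in KO by density were 0, and 1 with Agilent's processed signals (Rbl2), with median centring and with the value table. Over all settings the KO ratio ran from -1.35 to -0.77 at the brighter E2f6 probe and from -1.07 to -0.59 at the brighter E2f7 probe. The 1.4-fold limit gave 6 members in WT, 3 in KO and 6 for the genotype difference at low density, and 18, 17 and 15 targets for the KO density effect, the difference of density effects and the genotype difference at high density. With the mean of probes E2f7 no longer passed for the difference of density effects (0.71), which left 1 member in place of 2, and E2f6 no longer passed between genotypes (0.54 at low and 0.33 at high density), which left 2 in place of 3 and 1 in place of 2. Without scaling between arrays 10 targets in place of 19 passed at low density. Its median over all probes was 0.27 at both densities, so the direction split moved from 49.2% higher to 72.3% at low and 70.2% at high density. Median centring moved the split of density effects from 57.1% higher to 43.9% in WT and from 61.3% to 40.3% in KO, and turned the near-zero Rb1 ratio in both genotypes and the E2f5 ratio in KO. Leaving out 1 dye orientation gave 0 to 1 members in KO (E2f7 without replicate 1), and 4 to 8 targets between genotypes at high density (8 without replicate 2). Between genotypes Rb1 passed in replicate 2 alone and, at high density, E2f2 in replicate 1 alone. Over all probes, changed in WT, KO, the difference, low and high density were 3012, 2271, 1724, 3249 and 3077. They were 5756, 4828, 3163, 6310 and 5898 with processed signals, 8578, 8168, 6125, 9395 and 8877 at 1.4-fold, and 5824, 4858 and 3147 for the first 3 with the value table. The common effect called 0 probes, 365 with processed signals, 3 with median centring and 195 with the stricter filter. Leaving out 1 array gave 0 to 150 (150 without KO replicate 1). An ordinary t-test on the same values gave 436 with unadjusted p and the 2-fold limit. The cause of these changes was not tested.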
